A study of Homo sapiens with 6 samples.

Results

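SAS is an established cell line from a human squamous carcinoma of the mouth. Its transcripts were compared after transfection with an siRNA against CYLD or a control siRNA, in cells that received no ALK5 inhibitor. The arrays were chosen by title: siCtrl rep1 and rep2 against siCYLD rep1 and rep2, which makes 4 of the 6 arrays of the series. All cells were transfected, cultured for 2 days and then kept in serum-free medium for 48 h. The 4 arrays described here come from cells given DMSO, the solvent, during those 48 h. The other 2 arrays, 1 with each siRNA, come from cells given the ALK5 inhibitor and are used only where stated. The siCYLD rep1 array carries a control-siRNA source name, and the siCtrl rep2 array carries a CYLD-siRNA source name. Groups followed the titles, and the counts of called genes were also taken without these 2 arrays. Both groups are 1 cell line, no title names a further CYLD siRNA or a rescue, and no label tells if the duplicates came from different cultures. The p-values therefore reflect how far these particular arrays differ within a group, which may be technical spread.

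CYLD is a deubiquitinase that trims certain lysine-linked and linear ubiquitin chains from adaptors of the NF-κB pathway and is a tumour suppressor of skin appendages. NF-κB is kept in the cytoplasm by IκB proteins until upstream kinases mark these for destruction, and among its targets are its own inhibitors. TGF-β and activin bind paired type I and type II receptors. The type I receptor ALK5, encoded by TGFBR1, and the activin receptors phosphorylate SMAD2 and SMAD3, which enter the nucleus with SMAD4. In epithelial cells this pathway is known for slowing division and for raising matrix genes.

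Values are MAS5 signals, which are intensities on a linear scale in arbitrary units. For each gene the 2 siCtrl signals are given first and the 2 siCYLD signals second, each in replicate order. Differences are siCYLD minus siCtrl in log2(signal + 16.057), with the standard error of the fit after the ± sign and n = 2 arrays against 2. A gene was called, and is said to have risen or fallen, when its adjusted p in limma was below 0.05. A probe set's brightness depends on its own sequence, so signals are compared between arrays and never between genes. Arrays were on 1 scale: the trimmed mean signal was 500.1 on all 6, and the median signals ran from 73.4 to 84.8. Over the genes tested the duplicates correlated at 0.9867 for siCtrl and 0.988 for siCYLD, and arrays of different siRNAs at 0.9636 to 0.9661. The ACTB 3′/5′ signal ratio, a sign of RNA integrity and labelling, was 3.41 and 3.21 with siCtrl and 2.26 and 2.48 with siCYLD, so that it moved with the siRNA. The same ratio for GAPDH was 2.14 and 1.79 with siCtrl and 1.80 and 1.91 with siCYLD, and the groups overlapped. The part of these ratios in the results below was not tested.

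Epithelial genes were above the filter, while squamous markers were present in part. Of 10 markers listed for squamous epithelium 7 could be read, and KRT6A, KRT17 and TP63 had no probe set with their symbol alone. Of the 7, KRT5, DSG3, SFN, CDH1 and EPCAM were above the filter in all 4 arrays, of which the last 3 are general epithelial genes. The summed signal of the 7 was 55100 to 55600. KRT14, a basal keratin, read only 62.3 to 148, and PKP1, a desmosomal plaque protein, 6.88 to 45.5. Of 6 fibroblast markers 2 were above the filter in all 4 arrays, with summed signals of 713 to 871. Leukocyte markers, of which 3 of 4 listed could be read, passed in 0 cases, with sums of 124 to 176. Endothelial markers passed in 1 of 4, with sums of 267 to 354. Sums of different lists hold different probe sets and are not compared.

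CYLD transcript was lower in both siCYLD arrays, on every probe set of the gene that passed the filter. The brightest read 411 and 500 with siCtrl and 278 and 230 with siCYLD, a difference of -0.80 ± 0.18 (adjusted p = 0.0065, limma). Over its 4 kept probe sets the differences ran from -0.70 to -2.21, and the 3 probe sets below the filter also lay below 0. The arrays of the groups did not overlap on the kept probe sets, while 60.9% of all genes tested had no overlap on their brightest probe set. Without siCtrl replicate 2 the difference of the brightest probe set was -0.66 and its call was lost. That array is 1 of the pair whose labels conflict, and its CYLD signal of 500 was the highest of the 4.

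The other marker genes moved by far more than the duplicates differed. FN1, which encodes fibronectin, read 226 and 177 with siCtrl and 20900 and 20200 with siCYLD, a difference of 6.57 ± 0.13. Its 6 kept probe sets spanned differences of 0.84 to 8.48, and the highest values came from probe sets whose names end in _x_at or _s_at, which can also bind related sequences. When such probe sets were left out FN1 was represented by the one at 0.84 (54.2 and 44.8, then 97.6 and 105), and the call was lost. INHBA, the βA subunit of activin A, had signals of 368 and 405 and then 5860 and 5060 (3.76 ± 0.12), and its 3 kept probe sets gave 2.79 to 3.76. VEGFC, a growth factor for lymphatic vessels, rose from 1020 and 983 to 11200 and 12000 (3.51 ± 0.10). SCEL, which encodes sciellin of the cornified envelope, fell from 2320 and 2090 to 159 and 144 (-3.72 ± 0.15), and its 3 kept probe sets gave -2.44 to -3.72. For all 5 markers both siCYLD arrays lay on the same side of both siCtrl arrays. This also held for all 2757 called genes and for 60.9% of all genes tested.

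**Figure D1:**
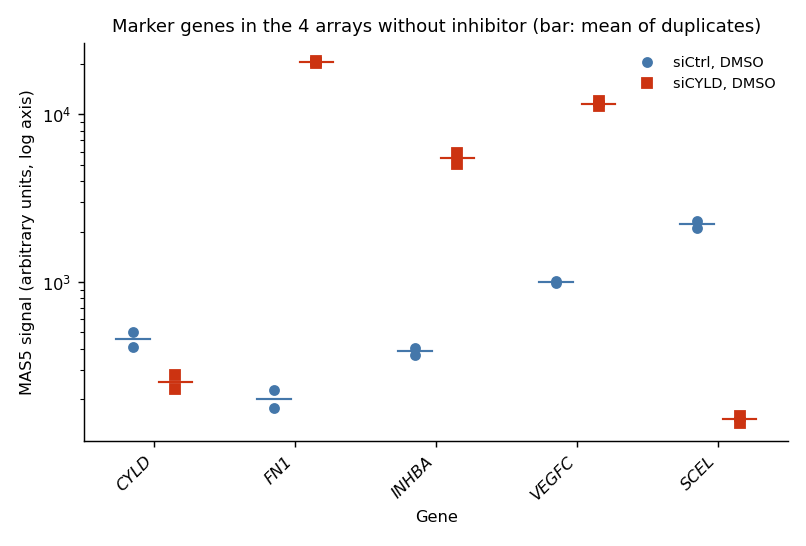
MAS5 signal (log axis) of the 5 marker genes in the 4 arrays without inhibitor, with 1 point for each array and a bar at the mean of the duplicates. CYLD and SCEL lie lower and FN1, INHBA and VEGFC higher in both siCYLD arrays, and the gap is smallest for CYLD, from 411 to 278 between its nearest arrays.

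The changes were widespread. Of 12935 genes tested, 1227 (9.49%) rose and 1530 (11.8%) fell, together 21.3%, and 252 (1.95%) rose and 301 (2.33%) fell at least 2-fold. At an unadjusted p below 0.05, 34.2% of genes differed, and the arrays of the groups did not overlap for 7875 genes (60.9%). The median difference over all genes was -0.04. Of the 1227 rises 57 were below the filter with siCtrl, and of the 1530 falls 87 were below it with siCYLD. Genes with several kept probe sets were also described by the direction of each probe set. Among the 125 such genes that rose at least 2-fold, 94.4% had every probe set on the same side of 0, as did 90.2% of the 133 that fell at least 2-fold, against 59.3% of all 6445 genes with several. For all called genes these shares were 82.4% higher and 76.2% lower. Called genes were selected on these same arrays and RNA, so their higher shares are no separate check. An additive fit that takes 1 siRNA difference for both treatments and leaves out the pair of arrays with conflicting labels called 508 genes higher and 544 lower. It rests on 4 arrays of which 2 had the inhibitor, so genes that differed less there also lose their call in it. In the text below it is called the reduced fit.

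Pathway lists were then read against these shares. The 58 lists described below and the cell type lists together comprise 1226 tested genes, of which 235 rose and 285 fell (42.4%). The lists were written with earlier results of these data known, so this share beside the 21.3% of all genes is only a description. The plot of members by list shows that the lists differ in direction: mitosis and replication genes lie below 0 almost without exception, and NF-κB and TGF-β targets mostly above.

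**Figure D2:**
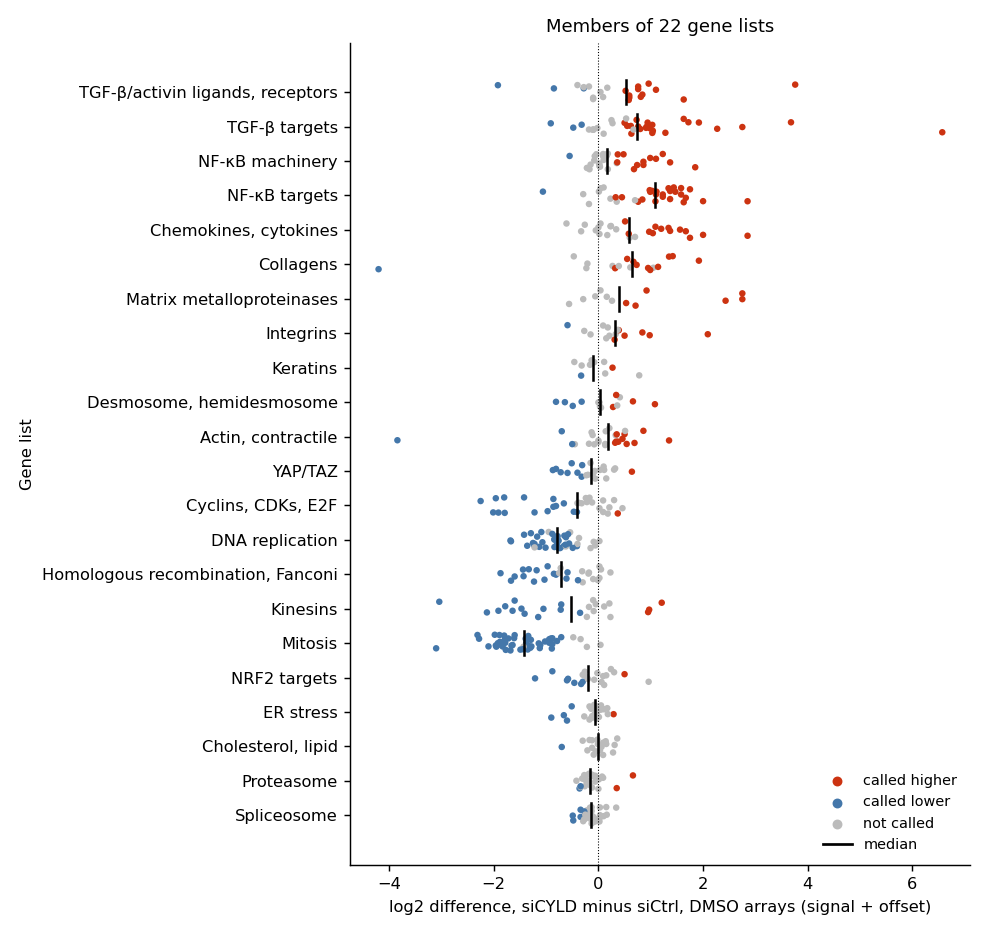
Difference of each tested member of 22 gene lists, siCYLD minus siCtrl in the 4 DMSO arrays, on the log2 scale of signal plus offset, with 1 point for each gene and a black bar at the list's median. Red points were called higher, blue points called lower and grey points not called. The median is -1.42 for mitosis, -0.79 for replication, 0.73 for TGF-β targets and 1.09 for NF-κB targets, and near 0 for ER stress and cholesterol genes.

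Ligands and receptors of the TGF-β and activin family rose more often than they fell. Of 23 tested, 12 rose and 3 fell, with a median of 0.52, and 5 rose in the reduced fit or when _x_at and _s_at probe sets were left out. The median over all genes was -0.04. TGFB1, the main TGF-β ligand, rose from 1040 and 1030 to 2140 and 1940 (0.96 ± 0.12, adjusted p = 7e-05, limma). FSTL3, a secreted antagonist that binds activin, rose from 136 and 128 to 440 and 440 (1.63 ± 0.20). LTBP4, which holds latent TGF-β in the matrix, rose from 133 and 114 to 340 and 234 (1.10 ± 0.23). ITGAV, the αv integrin chain that releases latent TGF-β, rose from 2060 and 2200 to 3770 and 3880 (0.84 ± 0.10). The calls of FSTL3, LTBP4 and ITGAV were lost in the reduced fit. The other activin and inhibin β subunits went the other way to INHBA. INHBB, the βB subunit, fell from 384 and 349 to 91.8 and 77.8 (-1.92 ± 0.19), and INHBE, the βE subunit, from 697 and 570 to 334 and 350 (-0.85 ± 0.15). Follistatin, the other activin antagonist, was not called: FST differed by -0.10 with a 95% interval of -0.39 to 0.19. The type II receptor gene TGFBR2 was also not called, at -0.28 (-0.53 to -0.03), but was without siCtrl replicate 1 (-0.45).

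Intracellular mediators and inhibitors changed in part. Among 13 SMADs and feedback regulators 6 rose and 1 fell, with a median of 0.20, and 2 rose in the reduced fit. PMEPA1, a membrane protein that sequesters SMAD2 and SMAD3, rose from 417 and 403 to 5230 and 5670 (3.68 ± 0.12, adjusted p = 6.9e-10, limma). SMAD3 itself rose from 3880 and 3710 to 6270 and 6410 (0.74 ± 0.09). SMAD7, the inhibitory SMAD, rose from 1050 and 1080 to 1640 and 2130 (0.80 ± 0.14), with the larger spread on the siCYLD side. Its call was lost without the intensity trend and in the additive fits with and without the arrays of conflicting labels. SMAD4, the partner of SMAD2 and SMAD3, was the 1 that fell, from 2150 and 2360 to 1550 and 1730 (-0.45 ± 0.11). Its 4 kept probe sets ran from -0.71 to 0.13, and the list had 0 falls in at least 1 fit that left out 1 array. SMAD2 was not called, at 0.20 (-0.05 to 0.45). In the BMP branch, which uses other receptors and SMADs, 2 of 16 genes rose and 0 fell, or 12.5% against 21.3% of all genes. DLX2, a homeobox target of BMP, rose from 403 and 354 to 715 and 754 (0.93 ± 0.14). ID1, a direct BMP target, was not called, at -0.06 (-0.35 to 0.23).

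TGF-β target genes were mostly higher: 22 of 35 rose and 3 fell, with a median of 0.73. In the reduced fit 10 rose, and 12 when _x_at and _s_at probe sets were left out. MMP9, gelatinase B, rose from 140 and 137 to 1000 and 1040 (2.75 ± 0.18). COL7A1, the anchoring fibril collagen, rose from 1080 and 972 to 3990 and 3860 (1.92 ± 0.11, adjusted p = 1.8e-07, limma). The secreted adhesion protein TGFBI rose from 8050 and 9530 to 29200 and 28400 (1.72 ± 0.09). ANGPTL4, a lipase inhibitor, rose from the dim signals of 17.7 and 35.9 to 189 and 184 (2.27 ± 0.42, or 1.47 with an offset of 64). The arrays of the groups did not overlap for these genes, which held for all 2757 called genes and for 60.9% of all genes tested. SPARC, a collagen-binding matrix protein, fell from 10400 and 9300 to 5620 and 4870 (-0.91 ± 0.10). CDKN2B, a CDK inhibitor, also fell, from 4520 and 4130 to 3050 and 3120 (-0.48 ± 0.10), as did TGM2, from 4900 and 4810 to 3720 and 4060 (-0.32 ± 0.10). Leaving out each array in turn gave 2 falls. Several widely used TGF-β targets were not called: CCN2 at 0.10 (-0.22 to 0.42), THBS1 at -0.09 (-0.28 to 0.10), SNAI2 at 0.25 (0.04 to 0.47), COL1A1 at 0.27 (-0.08 to 0.62) and ACTA2 at -0.11 (-0.36 to 0.14). The list therefore did not move as 1 block, and its range ran from -0.91 to 6.57. The ANGPTL4 call was lost in the reduced fit and the TGFBI call in both additive fits.

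PMEPA1 had the largest rise among the TGF-β targets with a searched motif in the promoter. The 250 bases before its RefSeq start on GRCh38.p14 (chr20:57711473-57711722, minus strand) are shown for that reason, with GGCGCC, a GC-rich SMAD motif, in capitals.
PMEPA1: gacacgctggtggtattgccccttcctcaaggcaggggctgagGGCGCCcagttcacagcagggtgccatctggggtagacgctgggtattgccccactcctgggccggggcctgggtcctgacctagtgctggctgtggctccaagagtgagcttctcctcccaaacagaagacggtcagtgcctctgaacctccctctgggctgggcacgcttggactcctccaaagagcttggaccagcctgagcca
GGCGCC was found in 33.3% of the TGF-β target promoters and in 30.2% of all 10447 promoters of tested genes, searching both strands of the 300 bases from 250 before to 50 after the start.

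Components of the NF-κB pathway rose in part. Of 31 tested, 12 rose and 1 fell, with a median of 0.16. IRAK2, an adaptor kinase of the interleukin-1 receptor, rose from 725 and 775 to 2580 and 2930 (1.85 ± 0.11, adjusted p = 2.7e-07, limma). TRAF1, a receptor adaptor, rose from 104 and 108 to 306 and 293 (1.37 ± 0.20). RELB, a subunit of the non-canonical pathway, rose from 653 and 619 to 1520 and 1500 (1.23 ± 0.12). NFKB1, which encodes p105 and p50, rose from 2480 and 2340 to 4680 and 4080 (0.86 ± 0.11), and the kinase gene IKBKE from 426 and 345 to 685 and 733 (0.86 ± 0.15). TRAF3IP2, an adaptor of the interleukin-17 receptor, was the 1 that fell, from 2340 and 1710 to 1650 and 1120 (-0.55 ± 0.17), a call lost without siCtrl replicate 1 (-0.33) or siCYLD replicate 2 (-0.28). Among the 18 not called were the following. The IκB kinase genes CHUK and IKBKB had -0.22 (-0.54 to 0.10) and 0.09 (-0.17 to 0.35). OTULIN, another deubiquitinase of linear chains, had 0.10 (-0.16 to 0.37). The linear ligase subunits RNF31 and SHARPIN had 0.01 (-0.48 to 0.50) and 0.02 (-0.23 to 0.28). The kinase gene MAP3K7 had 0.02 (-0.22 to 0.26).

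Targets of NF-κB rose: 24 of 33 were called higher and 1 lower, with a median of 1.09, and 4 of the 24 were below the filter with siCtrl. IL32, a cytokine of epithelial and lymphoid cells, rose from the dim signals of 12 and 27.6 to 225 and 250 (2.85 ± 0.36, or 1.85 with an offset of 64). CXCL8, a neutrophil chemokine, rose from 60.2 and 38.1 to 277 and 209 (2.00 ± 0.29, adjusted p = 0.00026, limma). CXCL2, of the same family, rose from 2230 and 2320 to 7990 and 7450 (1.75 ± 0.10). The inhibitors that NF-κB itself raises were among them. TNFAIP3, which encodes A20, rose from 668 and 610 to 1980 and 2030 (1.63 ± 0.11). NFKBIA, which encodes IκBα, rose from 3800 and 3950 to 9160 and 9000 (1.23 ± 0.09), and its call was lost when _x_at and _s_at probe sets were left out. The adhesion molecule ICAM1 rose from 832 and 703 to 2440 and 2210 (1.58 ± 0.12), and SOD2, the mitochondrial superoxide dismutase, from 524 and 518 to 1530 and 1650 (1.58 ± 0.12). PTX3, a secreted pattern recognition protein, was the 1 member that fell, from 409 and 477 to 202 and 205 (-1.06 ± 0.15), and its call was lost in both additive fits. IL6 was not called, at 0.23 (-0.05 to 0.51), nor was CCL20, at 0.04 (-1.24 to 1.32).

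The promoter windows of 28 of these 33 target genes were in the RefSeq table, and 46.4% held a κB motif, against 13.1% of all 10447 promoters and 18.9% of the 190 promoters of genes that rose at least 2-fold. These shares are a description of letters in a window. To show what these matches look like, the 250 bases before the start are printed with κB matches in capitals (GRCh38.p14). IL32 (chr16:3065153-3065402, plus strand) had the largest rise among those with a match, at the offset used. TNFAIP3 (chr6:137867009-137867258, plus strand) and NFKBIA (chr14:35404750-35404999, minus strand) were chosen with their values seen, as inhibitors of the pathway.
IL32: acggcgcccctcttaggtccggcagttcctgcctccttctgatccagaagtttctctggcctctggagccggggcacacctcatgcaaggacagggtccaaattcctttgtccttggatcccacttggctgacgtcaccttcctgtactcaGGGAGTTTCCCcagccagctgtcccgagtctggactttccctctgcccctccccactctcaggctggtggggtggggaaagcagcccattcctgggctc
TNFAIP3: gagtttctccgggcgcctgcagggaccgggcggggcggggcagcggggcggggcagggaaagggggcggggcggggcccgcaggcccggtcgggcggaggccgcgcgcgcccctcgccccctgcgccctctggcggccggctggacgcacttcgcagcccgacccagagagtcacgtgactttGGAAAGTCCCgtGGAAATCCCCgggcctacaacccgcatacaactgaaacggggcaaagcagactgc
NFKBIA: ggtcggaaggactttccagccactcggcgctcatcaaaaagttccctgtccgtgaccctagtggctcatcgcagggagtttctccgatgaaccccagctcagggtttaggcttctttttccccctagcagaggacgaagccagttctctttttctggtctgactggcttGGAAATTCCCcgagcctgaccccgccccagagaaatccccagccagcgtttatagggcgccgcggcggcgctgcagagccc
TNFAIP3 has 2 separate matches, starting 67 and 55 bases before the start, and NFKBIA has 1, starting 81 before it. The capitals in IL32 are 2 overlapping matches.

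Chemokine and cytokine genes rose in 13 of 26 cases and fell in 0, with a median of 0.59, and 3 of the 13 were below the filter with siCtrl. LIF, an interleukin-6 family cytokine, rose from 1320 and 1170 to 3600 and 3780 (1.56 ± 0.11). IL1B rose from 751 and 888 to 2210 and 2080 (1.37 ± 0.12), and IL1A, the epithelial alarmin, from 3080 and 3110 to 7120 and 6150 (1.09 ± 0.10). CXCL1 rose from 314 and 297 to 968 and 657 (1.34 ± 0.17), with a wide gap between the siCYLD arrays. IL11 rose from 721 and 594 to 1220 and 1510 (1.04 ± 0.16). Not called were MIF at 0.17 (-0.02 to 0.36), TSLP at -0.05 (-0.27 to 0.17) and IL18 at -0.33 (-0.74 to 0.08). AP-1 motif matches (TGANTCA) stood in 26.3% of the promoters of this list and in 4.72% of all. Cytokine receptors were more even, with 9 of 29 higher and 3 lower and a median of 0.24. TNFRSF9, the receptor known as 4-1BB, rose from 91.3 and 92.7 to 385 and 343 (1.81 ± 0.19). IL6ST, the shared signalling chain gp130, rose from 3000 and 2490 to 6140 and 4910 (1.0 ± 0.12). The interferon receptor chain gene IFNAR2 rose from 327 and 397 to 576 and 621 (0.71 ± 0.15), and the TRAIL receptor gene TNFRSF10A from 1830 and 1870 to 2890 and 2930 (0.65 ± 0.10). IL1RAP, the accessory chain of the interleukin-1 receptor, fell from 639 and 595 to 337 and 281 (-0.97 ± 0.16). TNFRSF1A, the main tumour necrosis factor receptor, was not called, at -0.10 (-0.30 to 0.10).

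**Figure D3:**
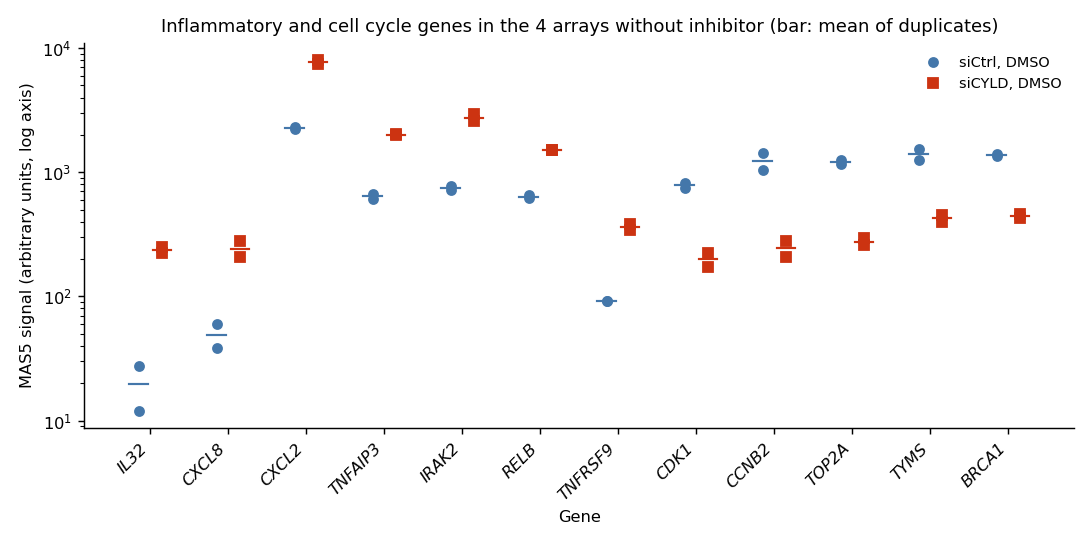
MAS5 signal (log axis) of 7 inflammatory genes and 5 cell cycle genes in the 4 arrays without inhibitor, with 1 point for each array and a bar at the mean of the duplicates. The siCYLD points of IL32 to TNFRSF9 lie above both siCtrl points, and those of CDK1 to BRCA1 lie below both, with CXCL8 and IL32 the most spread between duplicates.

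Growth factor genes split. Of 23 growth and angiogenic factors and receptors 6 rose and 7 fell, with a median of 0.03, and 2 of the 6 were below the filter with siCtrl. NRP1, a co-receptor for VEGF and semaphorins, rose from 599 and 635 to 1340 and 1260 (1.05 ± 0.12). NGFR, the low-affinity neurotrophin receptor of basal epithelium, fell from 506 and 465 to 86.4 and 81.6 (-2.33 ± 0.16, adjusted p = 5.4e-07, limma). FGFR2 fell from 4140 and 4220 to 1180 and 1240 (-1.78 ± 0.10), a call lost when _x_at and _s_at probe sets were left out. BDNF, a neurotrophin, fell from 616 and 603 to 206 and 225 (-1.43 ± 0.15), and ADM, the vasodilator adrenomedullin, from 2020 and 1990 to 952 and 984 (-1.04 ± 0.11). VEGFA was not called, at 0.20 (0.03 to 0.37). Of 11 EGF family genes 4 rose and 2 fell: HBEGF, a heparin-binding ligand, rose from 2880 and 3290 to 5710 and 5600 (0.87 ± 0.10). EGFR, the receptor itself, was not called, at 0.02 (-0.14 to 0.19). The receptor gene ERBB3 fell from 2040 and 2270 to 1240 and 1350 (-0.73 ± 0.11), a call lost with the mean of probe sets. In the insulin-like growth factor system 4 of 15 genes rose and 1 fell. IGF1R rose from 5360 and 4680 to 9440 and 10100 (0.96 ± 0.10), and the binding protein gene IGFBP3 from 6300 and 6960 to 10500 and 11500 (0.73 ± 0.09), although both calls were lost in the additive fits. IRS1, the adaptor below that receptor, fell from 513 and 516 to 242 and 191 (-1.20 ± 0.15), a call lost with the mean of probe sets.

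Collagens rose in 10 of 18 cases and fell in 1, with a median of 0.64, and 5 rose in the reduced fit. COL18A1, a basement membrane collagen and the source of endostatin, rose from 197 and 157 to 506 and 486 (1.42 ± 0.18). COL5A1, which sets fibril diameter, rose from 429 and 365 to 1100 and 973 (1.35 ± 0.15), a call lost in the reduced fit. COL16A1 rose from 761 and 662 to 1710 and 1460 (1.14 ± 0.13). COL8A1, a short-chain collagen, was the exception: it read 378 and 429 with siCtrl and 9.63 and 4.27 with siCYLD (-4.20 ± 0.36). The siCYLD signals lie below the offset, and with an offset of 64 the difference was -2.72. Enzymes that modify collagen moved both ways, 4 of 19 up and 3 down. The prolyl hydroxylase gene P4HA2 rose from 878 and 1060 to 2040 and 1910 (1.03 ± 0.12). The lysyl hydroxylase gene PLOD2 rose from 4040 and 4270 to 7980 and 7950 (0.94 ± 0.09). P3H2, a prolyl 3-hydroxylase, fell from 1300 and 1250 to 197 and 243 (-2.45 ± 0.15), and the crosslinking oxidase gene LOXL4 from 1180 and 1280 to 482 and 525 (-1.26 ± 0.13). LOX was not called, at -0.20 (-0.65 to 0.25).

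Other matrix and adhesion genes were as divided. Among 9 laminin and basement membrane genes 3 rose and 3 fell. LAMB3, a chain of laminin-332, rose from 20800 and 19500 to 39900 and 40500 (1.0 ± 0.08, adjusted p = 1.2e-06, limma). LAMA4 fell from 872 and 920 to 350 and 314 (-1.39 ± 0.14), a call lost when _x_at and _s_at probe sets were left out. Of 22 further matrix proteins 7 rose and 5 fell. TNC, tenascin-C, rose from 4500 and 4960 to 10500 and 10500 (1.15 ± 0.09). ABI3BP, a matrix protein with fibronectin-type domains, fell from 619 and 674 to 59.0 and 125 (-2.69 ± 0.26), FBLN1, fibulin-1, from 538 and 540 to 249 and 212 (-1.17 ± 0.15), and EFEMP1, fibulin-3, from 922 and 1080 to 447 and 503 (-1.05 ± 0.14). Integrins rose in 6 of 15 cases and fell in 1. ITGA2, the collagen receptor chain, had signals of 4650 and 4870 and then 20200 and 20400 (2.09 ± 0.08), and ITGA5, the fibronectin receptor chain, 1310 and 1270 and then 2270 and 2880 (0.98 ± 0.13). ITGB4 of the hemidesmosome was not called, at 0.18 (-0.01 to 0.37).

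Matrix metalloproteinases and the urokinase gene rose. Of 12 matrix metalloproteinases tested 6 rose and 0 fell, and 2 of the 6, MMP1 and MMP10, were below the filter with siCtrl and were tested only because they are high with siCYLD, so the count is partly set by the filter. MMP1, interstitial collagenase, rose from 1.23 and 22, among the dimmest signals of the array, to 175 and 139 (2.75 ± 0.41), and MMP10, stromelysin-2, from 5.31 and 2.38 to 103 and 79.7 (2.43 ± 0.39). The size of both rests on the offset: MMP1 had 4.91 with no offset and 1.56 with an offset of 64, and MMP10 had 4.67 and 1.19. MMP7, MMP11 and MMP28 were not called, at -0.56 (-1.42 to 0.29), 0.16 (-0.25 to 0.56) and 0.04 (-0.64 to 0.73). PLAU, the urokinase gene, rose from 6860 and 6220 to 19100 and 17200 (1.47 ± 0.09, adjusted p = 2.6e-07, limma), and its receptor gene PLAUR from 692 and 696 to 1160 and 1090 (0.68 ± 0.12). Among 22 genes of the plasminogen system and of protease inhibitors 7 rose and 5 fell. CST6, a cathepsin inhibitor, rose from 1140 and 1420 to 4900 and 4860 (1.93 ± 0.13). SERPINE2, an inhibitor of thrombin and urokinase, rose from 453 and 513 to 1210 and 1150 (1.27 ± 0.13). TIMP3, the matrix-bound metalloproteinase inhibitor, fell from 3000 and 3250 to 778 and 897 (-1.88 ± 0.11), and TFPI, an inhibitor of coagulation, from 888 and 841 to 572 and 543 (-0.62 ± 0.13). Of 14 ADAM and ADAMTS proteases 4 rose and 1 fell. ADAM12 rose from 220 and 206 to 711 and 644 (1.60 ± 0.15), ADAMTS1 from 4960 and 5330 to 13600 and 14100 (1.42 ± 0.09) and ADAMTS6 from 318 and 354 to 577 and 627 (0.81 ± 0.16). ADAM17, the main sheddase, was not called, at -0.09 (-0.31 to 0.12).

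Epithelial lists differed in the share called. Of 10 keratins KRT7 rose, by 0.27 on the log2 scale, and KRT8 fell by 0.33, a share of 20% against 21.3% of all genes. Both calls were lost without siCYLD replicate 1, where the values were 0.27 and -0.30. KRT5 was not called, at -0.32 (-0.56 to -0.08), but was without siCtrl replicate 1 (-0.41), and KRT18 was not called, at -0.08 (-0.24 to 0.08). Desmosome and hemidesmosome genes rose in 4 of 14 cases and fell in 4, or 57.1%. PLEC, plectin, rose from 1000 and 1020 to 2030 and 2280 (1.08 ± 0.11). DSP, desmoplakin, rose from 10700 and 11000 to 16700 and 17500 (0.66 ± 0.08), a call lost in both additive fits. PPL, periplakin, fell from 8240 and 7470 to 4260 and 4680 (-0.81 ± 0.10), and DSG3, a desmosomal cadherin, from 1210 and 1260 to 754 and 820 (-0.64 ± 0.12). Of 27 junction and polarity genes 3 rose and 5 fell, or 29.6%. GJB2, connexin 26, rose from 385 and 347 to 2230 and 2190 (2.55 ± 0.12). FAT4, a large cadherin, fell from 911 and 772 to 88.3 and 143 (-2.73 ± 0.22), and CGN, the tight junction protein cingulin, from 675 and 771 to 361 and 375 (-0.94 ± 0.15). CDH1, E-cadherin, was not called, at -0.23 (-0.41 to -0.06). Of 19 cornified envelope genes SCEL fell, and CRCT1 (2.01), SPRR2B (0.91) and KLK8 (0.53) rose, or 21.1% called. Without siCYLD replicate 2 these 3 had 1.87, 0.92 and 0.54 and none was called.

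Of 20 genes of basal and squamous identity 2 rose and 7 fell, with a median of -0.04, the same as over all genes. SOX9 rose from 2230 and 2210 to 4880 and 4580 (1.08 ± 0.10). SOX2 fell from 177 and 177 to 63.4 and 62.6 (-1.29 ± 0.24), and ELF3 from 8920 and 8390 to 4950 and 5040 (-0.79 ± 0.09). Among 19 genes linked to epithelial-mesenchymal transition, 3 rose and 1 fell, 21.1% in all. FOXC2 rose from 94.1 and 125 to 263 and 300 (1.25 ± 0.23) and the hyaluronan receptor gene CD44 from 12200 and 10700 to 25400 and 23000 (1.08 ± 0.09). TWIST1 fell from 1440 and 1320 to 780 and 845 (-0.76 ± 0.12). VIM was not called, at 0.13 (-0.72 to 0.99), nor CDH2, at 0.08 (-0.50 to 0.66). Of 11 S100 genes 5 rose and 1 fell: S100A6, calcyclin, rose from 4760 and 3720 to 15000 and 14100 (1.78 ± 0.11). Actin-associated genes rose in 10 of 26 cases and fell in 3. TAGLN2 rose from 3730 and 4300 to 10700 and 9780 (1.35 ± 0.10), and ZYX, zyxin of focal adhesions, from 1270 and 1330 to 2120 and 2080 (0.69 ± 0.11). TNNI2, a troponin of skeletal muscle, fell from 382 and 318 to 5.76 and 13.8 (-3.84 ± 0.30, or -2.49 with an offset of 64).

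Signalling-responsive transcription factors and their feedback genes rose in part. Among 16 AP-1 and early response genes 7 rose and 0 fell, with a median of 0.28. FOSL1, the AP-1 subunit Fra-1, rose from 2920 and 2740 to 5310 and 5950 (0.99 ± 0.10). IER3 rose from 6020 and 7060 to 13100 and 13500 (1.03 ± 0.09), EGR3 from 896 and 836 to 1610 and 1670 (0.91 ± 0.11), and JUNB from 1660 and 1660 to 3290 and 2970 (0.91 ± 0.11). FOS and EGR1 were not called, at -0.22 (-0.51 to 0.08) and 0.09 (-0.09 to 0.27). Of 20 ERK feedback genes 9 rose and 1 fell. The MAP kinase phosphatase genes DUSP4 (432 and 449, then 991 and 1100), DUSP10 (414 and 390, then 769 and 821) and DUSP1 (8810 and 8670, then 14900 and 16700) rose by 1.22 ± 0.13, 0.96 ± 0.13 and 0.85 ± 0.09. SPRY1, a Sprouty inhibitor of receptor tyrosine kinases, fell from 460 and 396 to 161 and 157 (-1.34 ± 0.15). DUSP6, the ERK-selective phosphatase, was not called, at 0.13 (-0.19 to 0.45), but was without siCtrl replicate 2 (0.41). Among 22 KLF and ETS factors 8 rose and 2 fell. KLF7 rose from 315 and 306 to 1310 and 1050 (1.87 ± 0.14), ETS1 from 4880 and 5660 to 11200 and 10600 (1.05 ± 0.10), KLF10 from 1760 and 1790 to 3720 and 3590 (1.03 ± 0.10) and KLF6 from 3780 and 3710 to 7750 and 7580 (1.03 ± 0.09).

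SGK1, a kinase that resembles AKT, rose from 216 and 244 to 6170 and 5670 (4.59 ± 0.13, adjusted p = 1.1e-10, limma). NDRG1, a substrate of SGK1, rose from 4650 and 6290 to 13700 and 13600 (1.34 ± 0.12). Of 10 genes in the SGK list 3 rose and 1 fell, and AKT1 was not called, at 0.28 (0.05 to 0.51). Notch genes divided evenly, 5 of 18 higher and 4 lower, with a median of 0.01. MFNG, a glycosyltransferase that tunes Notch, fell from 552 and 504 to 284 and 301 (-0.82 ± 0.15). Wnt genes were 5 higher and 5 lower of 25. WNT9A rose from 119 and 113 to 345 and 442 (1.63 ± 0.22), while the antagonist gene DKK1 fell from 7590 and 8200 to 3130 and 3330 (-1.29 ± 0.09) and the receptor gene FZD2 from 5220 and 4640 to 2450 and 2720 (-0.92 ± 0.11). YAP and TAZ genes had 1 of 21 higher and 8 lower and a median of -0.15. AJUBA, a LIM scaffold of the Hippo pathway, fell from 22400 and 21800 to 11300 and 13000 (-0.87 ± 0.09), MYOF, myoferlin, from 10700 and 10200 to 6170 and 5740 (-0.81 ± 0.09), and CRIM1 from 12800 and 13100 to 8440 and 8740 (-0.59 ± 0.08). The direct targets CCN1 and CCN2 of this pathway were not called, at -0.10 (-0.27 to 0.08) and 0.10 (-0.22 to 0.42). Ephrins, semaphorins and their receptors rose in 7 of 29 cases and fell in 3, or 34.5% against 21.3% of all genes. SEMA3C rose from 2590 and 2370 to 5030 and 4670 (0.96 ± 0.10), EFNA1 from 1300 and 1200 to 2000 and 2510 (0.84 ± 0.13) and PLXND1 from 1150 and 968 to 1910 and 1790 (0.80 ± 0.12).

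Genes of cell division fell. In bulk RNA, fewer dividing cells and less transcript in each dividing cell cannot be told apart. Of 50 mitosis genes 45 fell and 0 rose, with a median of -1.42 and a range of -3.10 to 0.04, against 11.8% of all genes lower. ANLN, anillin of the cleavage furrow, fell from 981 and 982 to 228 and 150 (-2.31 ± 0.17, adjusted p = 1.1e-06, limma). HMMR, a spindle protein, fell from 893 and 1010 to 200 and 168 (-2.28 ± 0.15), and the checkpoint kinase gene TTK from 450 and 391 to 88.7 and 81.8 (-2.10 ± 0.18). CKAP2L, a spindle protein, fell from 215 and 185 to 8.67 and 9.56 (-3.10 ± 0.30), a call lost in the reduced fit. CDC20, which activates the anaphase-promoting complex, fell from 2370 and 2480 to 802 and 759 (-1.61 ± 0.11). AURKA fell from 831 and 927 to 436 and 466 (-0.94 ± 0.13). The members not called were MIS12, BUB3, ZWILCH, SGO1 and CENPI. Of these CENPI had -1.43 with an interval of -2.47 to -0.38 and was called at -2.22 without siCYLD replicate 1, and MIS12 had 0.04 (-0.23 to 0.31). In the reduced fit the number of mitosis genes that fell was 30, and leaving out each array in turn gave 43 to 45. Of the 45, 6 were below the filter with siCYLD and were tested because they are high with siCtrl.

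Cyclin and CDK genes also fell. Of 30 cyclin, CDK and E2F genes 15 fell and 1 rose, and 2 of the 15 were below the filter with siCYLD. CCNB2, cyclin B2, fell from 1040 and 1420 to 281 and 209 (-2.25 ± 0.17), although its 1 other kept probe set was on the other side of 0. CDK1, the mitotic kinase, fell from 747 and 824 to 224 and 173 (-1.91 ± 0.15), and its 3 kept probe sets shared this direction. CCNB1 fell from 693 and 938 to 245 and 198 (-1.80 ± 0.17) and CCNA2, which acts in S phase and G2, from 567 and 708 to 275 and 252 (-1.22 ± 0.15). FOXM1, a transcription factor of G2 and mitosis, fell from 2570 and 2330 to 967 and 853 (-1.42 ± 0.11), a call lost in the reduced fit, and MYBL2, a partner in the same complex, from 651 and 480 to 147 and 154 (-1.79 ± 0.17). These genes of G1 were not called: CCND1 at 0.46 (0.11 to 0.81), CCND3 at 0.21 (-0.02 to 0.44), CCNE1 at 0.02 (-0.37 to 0.41), CDK6 at 0.09 (-0.09 to 0.28) and CDK2 at -0.24 (-0.49 to 0.01). Of the same phase, CCND2 fell from 15100 and 14200 to 11200 and 10000 (-0.47 ± 0.09), and CCNE2 from 180 and 194 to 98.2 and 93.4 (-0.86 ± 0.22), and CDC25A was called lower at -0.41 ± 0.14. The CDC25A call was lost when any 1 array was left out (-0.38 to -0.43), that of CCNE2 without siCtrl replicate 2 (-0.81), and those of CCND2 and CCNE2 in the reduced fit. CCND1 was called when either siCYLD array was left out (0.39 and 0.53) and without siCtrl replicate 2 (0.78). Among 20 CDK inhibitors and p53 targets 2 rose and 7 fell. CDKN1B, which encodes p27, fell from 3130 and 3720 to 1900 and 2110 (-0.76 ± 0.11). CDKN1A, which encodes p21, rose from 5930 and 6300 to 8960 and 9810 (0.62 ± 0.09), a call lost in both additive fits. PLK3 rose from 593 and 728 to 1580 and 1570 (1.24 ± 0.13) and PLK2 fell from 706 and 917 to 374 and 316 (-1.19 ± 0.15).

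DNA replication genes fell in 33 of 43 cases and rose in 0, with a median of -0.79. TYMS, thymidylate synthase, fell from 1260 and 1530 to 455 and 394 (-1.68 ± 0.13), and RRM2, a ribonucleotide reductase subunit, from 2000 and 2450 to 686 and 679 (-1.67 ± 0.12), the latter call lost in both additive fits. GMNN, geminin, which blocks a new round of licensing, fell from 598 and 635 to 234 and 206 (-1.42 ± 0.15). Of the origin complex, ORC6 fell from 3330 and 2700 to 1160 and 1590 (-1.13 ± 0.14), and MCM7, a subunit of the replicative helicase, from 3490 and 5040 to 2110 and 2050 (-1.01 ± 0.14), a call lost without the intensity trend. In the reduced fit 7 genes each were called lower among replication, cyclin and CDK, chromosome structure, and recombination genes, and 5 among kinesins. Kinesin genes moved both ways, with 13 of 24 lower and 3 higher. Of the 13, 5 were below the filter with siCYLD, and of the 3, 1 was below it with siCtrl, so these counts are partly set by the filter. The mitotic motor genes KIFC1 (283 and 370, then 19.3 and 32.4), KIF11 (1040 and 1270, then 281 and 306) and KIF2C (609 and 864, then 203 and 197) fell by 3.04, 1.91 and 1.78 on the log2 scale. The transport motor genes KIF3C (612 and 619, then 1420 and 1480) and KIF1C (1030 and 1020, then 2000 and 1970) rose by 1.21 ± 0.12 and 0.95 ± 0.11. Of 22 chromosome structure genes 15 fell and 1 rose. TOP2A fell from 1250 and 1170 to 294 and 259 (-2.06 ± 0.13), and the condensin gene NCAPG from 351 and 409 to 102 and 75.0 (-1.93 ± 0.20). Of 27 homologous recombination and Fanconi genes 15 fell and 0 rose, and 2 of the 15 were below the filter with siCYLD. RAD51AP1 fell from 621 and 679 to 171 and 161 (-1.87 ± 0.14), BRIP1 from 538 and 601 to 158 and 178 (-1.67 ± 0.15) and BRCA1 from 1400 and 1360 to 459 and 428 (-1.60 ± 0.12). The damage kinase genes ATM and ATR were not called, at 0.02 (-0.25 to 0.28) and -0.01 (-0.26 to 0.25).

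Many promoters of the mitosis genes hold a short element known from cell cycle genes. Its share describes the list, whatever the knockdown did. TTTGAA, the cell cycle genes homology region or CHR that the DREAM and MuvB complexes are known to bind, stood on either strand in 65.0% of the 40 mitosis promoters in the table, against 9.69% of all 10447 and 5.13% of the 39 replication promoters. CCAAT, the box bound by NF-Y, stood in 75.0% and 36.5%. Of 35 CHR matches in the mitosis promoters 71.4% started between 60 bases before and 39 bases after the start, against 28.2% of the 1114 matches in all promoters. The promoters below are printed because their genes fell and hold both elements, with CHR and CCAAT matches, on either strand, in capitals. CKAP2L (chr2:112764610-112764859, minus strand) had the largest fall of the list at the offset used. With an offset of 64 it had -1.85, and ANLN had -2.07. CDC20 (chr1:43358731-43358980, plus strand) and CCNB2 (chr15:59104896-59105145, plus strand) were chosen with their values seen.
CKAP2L: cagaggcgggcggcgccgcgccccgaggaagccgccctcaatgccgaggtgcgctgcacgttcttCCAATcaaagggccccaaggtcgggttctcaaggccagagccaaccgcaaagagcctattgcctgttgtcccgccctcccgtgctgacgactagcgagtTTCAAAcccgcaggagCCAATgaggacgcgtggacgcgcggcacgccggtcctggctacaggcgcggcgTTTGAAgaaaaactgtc
CDC20: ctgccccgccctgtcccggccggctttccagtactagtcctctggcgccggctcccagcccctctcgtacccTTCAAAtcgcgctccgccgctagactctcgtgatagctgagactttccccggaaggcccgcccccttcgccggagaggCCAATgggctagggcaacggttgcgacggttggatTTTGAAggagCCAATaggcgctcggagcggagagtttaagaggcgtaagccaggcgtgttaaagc
CCNB2: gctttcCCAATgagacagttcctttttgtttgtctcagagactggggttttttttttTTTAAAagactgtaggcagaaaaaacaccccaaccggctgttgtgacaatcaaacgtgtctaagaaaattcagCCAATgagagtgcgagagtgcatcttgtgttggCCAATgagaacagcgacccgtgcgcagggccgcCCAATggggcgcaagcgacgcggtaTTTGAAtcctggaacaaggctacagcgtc
In CCNB2 the capitals also mark 1 TTTAAA, a variant of the element, beside its 1 TTTGAA. All 3 promoters hold at least 1 TTTGAA or its reverse TTCAAA within 90 bases of the start.

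Replication promoters held another motif. The E2F motifs TTTCGCGC and TTTGGCGC, searched on both strands, stood in 30.8% of the 39 replication promoters and in 1.90% of all. MCM7 (GRCh38.p14, chr7:100101398-100101647, minus strand) had the largest fall among replication genes with a match before the start and is printed with that match in capitals.
MCM7: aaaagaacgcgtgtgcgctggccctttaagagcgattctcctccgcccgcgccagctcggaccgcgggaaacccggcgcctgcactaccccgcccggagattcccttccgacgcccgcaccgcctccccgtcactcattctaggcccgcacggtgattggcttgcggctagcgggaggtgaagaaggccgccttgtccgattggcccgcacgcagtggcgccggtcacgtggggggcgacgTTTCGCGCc
The match starts 9 bases before the start. Read from the promoter side, the shares of called genes were as follows, with no test. Of 1012 genes with a CHR match 19.8% fell, and of the 421 with both a CHR and a CCAAT match 25.9% fell, against 12.1% of all 10447 genes with a promoter. The 382 of them outside the cell cycle lists gave 19.1% with a median of -0.17, and the median of all was -0.05. Of 199 genes with an E2F match 23.1% fell, and 16% of the 175 outside the lists. The lists do not name every cell cycle gene, so the 382 and the 175 may hold further ones. Genes with a κB match rose in 12.3% of 1372 cases against 9.30% of all. The base composition of the promoters was not adjusted for.

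**Figure D4:**
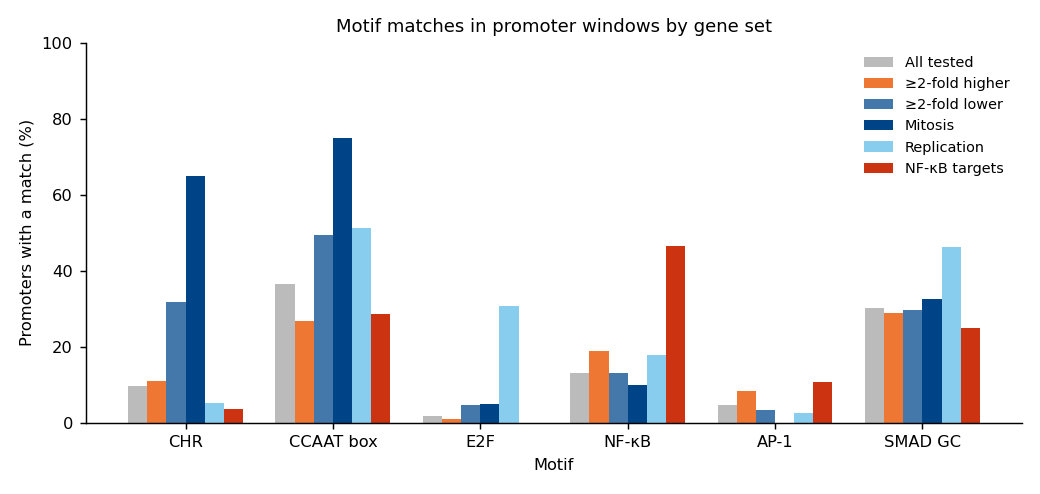
Percent of promoter windows (250 bases before to 50 after the RefSeq start) with at least 1 match, by motif and gene set, with bars from 0. CHR matches stand in 65.0% of mitosis promoters and 31.9% of those of genes that fell at least 2-fold, E2F matches in 30.8% of replication promoters and κB matches in 46.4% of NF-κB target promoters. SMAD GC matches range more narrowly between the sets.

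Stress and metabolic lists differed in how many members were called. Of 25 ER stress genes 1 rose and 4 fell, or 20% called against 21.3% of all genes. Of the 25, 20 had a 95% interval within 0.5 of 0 on the log2 scale, as had 4899 of all 12935 genes. HSPA5, the chaperone BiP, had -0.05 (-0.21 to 0.11). The falls included EDEM1, which feeds misfolded proteins to degradation, from 3020 and 3190 to 1530 and 1790 (-0.90 ± 0.11), and the sensor kinase gene EIF2AK3, from 4650 and 4760 to 2900 and 3040 (-0.66 ± 0.09). Of 19 cholesterol and lipid genes 1 fell and 0 rose (5.26% called), and 14 intervals lay within 0.5 of 0. INSIG1, which retains the SREBP complex, fell from 5270 and 5420 to 3040 and 3540 (-0.70 ± 0.10), while HMGCS1 had -0.12 (-0.38 to 0.13). Among 33 genes of hypoxia and glycolysis 3 rose and 4 fell, or 21.2%, about the share of all genes. PFKFB4, which makes the glycolytic activator fructose bisphosphate, rose from 361 and 340 to 902 and 1230 (1.54 ± 0.17), a call lost in the reduced fit, and LDHA was not called, at -0.04 (-0.29 to 0.21). Amino acid and tRNA synthetase genes fell in 11 of 29 cases and rose in 0 (37.9% called, median -0.24). PHGDH, the first enzyme of serine synthesis, fell from 5240 and 6840 to 2630 and 2720 (-1.16 ± 0.12). NRF2 targets fell in 7 of 21 cases and rose in 1 (38.1% called, median -0.20). The glutathione enzyme gene GCLC fell from 4120 and 4560 to 2200 and 2510 (-0.88 ± 0.11), PIR from 272 and 269 to 123 and 93.0 (-1.21 ± 0.24) and TXNRD1 from 12500 and 12000 to 8180 and 7990 (-0.60 ± 0.08). HMOX1 was not called, at 0.30 (-0.04 to 0.64).

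Lists of housekeeping machinery were called at shares of 13.6% to 21.4%, against 21.3% of all genes. Proteasome genes were called in 14.8% of 27 cases, 2 higher and 2 lower, spliceosome genes in 16.7% of 30, all 5 lower, ribosome biogenesis genes in 13.6% of 22 and oxidative phosphorylation genes in 21.4% of 28. MYC was not called, at 0.07 (-0.09 to 0.23). Among 28 interferon-stimulated genes 3 rose and 5 fell (28.6% called), and 2 of the 5 were below the filter with siCYLD. IFIT2 fell from 315 and 277 to 111 and 85.9 (-1.45 ± 0.17), and ISG15 was not called, at -0.17 (-0.55 to 0.21). Antigen presentation genes were 3 higher and 3 lower of 18, with TAPBP, tapasin, rising from 4360 and 3820 to 7390 and 6840 (0.80 ± 0.10). Lysosome and autophagy genes rose in 7 of 26 cases and fell in 1. The cathepsin gene CTSB rose from 5690 and 6030 to 14500 and 16900 (1.41 ± 0.10), with its 5 kept probe sets on 1 side. Among 36 deubiquitinases 3 rose and 6 fell (25% called), CYLD among the latter. USP1, which acts on Fanconi and replication proteins, fell from 5150 and 5420 to 2990 and 2780 (-0.87 ± 0.09), and USP31 rose from 914 and 767 to 1330 and 1460 (0.72 ± 0.12). Of 27 apoptosis genes 2 rose and 2 fell (14.8% called). HRK, a BH3-only protein, fell from 844 and 981 to 389 and 439 (-1.11 ± 0.14), and MCL1 was not called, at -0.09 (-0.28 to 0.10). Circadian genes were 3 higher and 4 lower of 14. The repressor gene BHLHE40 rose from 5220 and 4170 to 9800 and 9320 (1.03 ± 0.11), and the nuclear receptor gene NR1D2 fell from 1290 and 1240 to 769 and 657 (-0.82 ± 0.13). In the prostaglandin list 3 of 10 rose and 0 fell. PTGS2, cyclooxygenase-2, rose from 70.8 and 43.3 to 201 and 158 (1.44 ± 0.34), a call lost in both additive fits.

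Large changes also fell on genes outside these lists. Ranked by size and leaving aside the first 12 in each direction, the next 18 rises lay between 2.14 and 2.60. L1CAM, a neural adhesion molecule, rose from 576 and 606 to 3680 and 3630 (2.60 ± 0.11). TLL2, a tolloid-like metalloprotease, rose from 44.6 and 81.4 to 322 and 525 (2.48 ± 0.27), MOB3B from 176 and 164 to 1040 and 975 (2.46 ± 0.16), and VNN1, pantetheinase, from 138 and 186 to 982 and 918 (2.45 ± 0.17). CORO1A, an actin regulator of leukocytes, rose from 41.6 and 66.3 to 313 and 352 (2.34 ± 0.25). The long non-coding RNA MIR31HG rose from 182 and 126 to 833 and 825 (2.33 ± 0.18), and IFNE, an epithelial interferon, from 237 and 181 to 1150 and 933 (2.24 ± 0.18). CHST11, a chondroitin sulfotransferase, rose from 277 and 366 to 1460 and 1650 (2.23 ± 0.15). Falls of rank 13 to 30 lay between -1.96 and -2.28 and 8 of these 18 genes were in the cell cycle lists, with HMMR, CCNB2, TTK, TOP2A and PLK4 among them. Outside the lists, PDE5A, a cyclic GMP phosphodiesterase, fell from 942 and 962 to 198 and 170 (-2.28 ± 0.15), FGD3, an exchange factor for CDC42, from 387 and 334 to 54.6 and 84.5 (-2.16 ± 0.24), and the zinc finger gene ZNF367 from 400 and 518 to 62.9 and 103 (-2.28 ± 0.22).

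Ranking by the moderated t, which weighs a change against its spread, brought forward bright genes with close duplicates. SH3PXD2A, the podosome scaffold TKS5, read 1730 and 1700 and then 8590 and 8770 (2.33 ± 0.09, adjusted p = 3.8e-09, limma). NAV2 read 1740 and 1520 and then 8110 and 8090 (2.30 ± 0.10), and AKAP12, an anchor of protein kinase A, 2670 and 3610 and then 15300 and 14600 (2.26 ± 0.12). MTSS1, an actin and membrane protein, read 1400 and 1360 and then 6050 and 6150 (2.13 ± 0.10). The last 3 had 3, 4 and 3 kept probe sets, all on the same side of 0. Among the falls, NANOS1, a translational repressor, read 11800 and 10700 and then 1880 and 1970 (-2.54 ± 0.09). FAM83D, a spindle protein, read 3980 and 4000 and then 1200 and 1220 (-1.71 ± 0.10), CITED2, a modulator of the CBP and p300 coactivators, 8230 and 7600 and then 2680 and 2830 (-1.52 ± 0.09), and ITGBL1 1950 and 2010 and then 577 and 523 (-1.82 ± 0.12).

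The inhibitor arrays, which share no array with the comparison above, gave a second reading of the knockdown without replicates. In this pair too the ACTB 3′/5′ ratio moved with the siRNA, at 3.67 with siCtrl and 2.38 with siCYLD. The GAPDH ratio was 1.87 and 1.97. The part of these ratios in the shared directions was not tested. The sign was the same in that pair for 89.2% of the 1227 genes that rose and 87.6% of the 1530 that fell, against 69.0% of all tested genes. These genes were selected in the DMSO arrays, so no size is compared for them. The lists, which were chosen with these results known, are given as a description. Mitosis genes had medians of -1.42 and -0.28, replication genes -0.79 and -0.13, TGF-β targets 0.73 and 0.17, collagens 0.64 and 0.27, NF-κB targets 1.09 and 1.21, and chemokines and cytokines 0.59 and 0.88. The median over all genes was -0.04 without and -0.01 with the inhibitor. The pair's values are single arrays, and no test was made on them alone.

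The interaction, the difference in the pair minus that in the DMSO arrays, was called for 216 of the 12935 genes (1.67%), 127 above 0 (0.982%) and 89 below (0.688%), and 1767 had an unadjusted p below 0.05. It uses the DMSO arrays again, and each inhibitor arm is 1 array that is assumed to vary as the duplicates do, so its p-values carry no spread of the inhibitor arms themselves. It called 0 genes without the intensity trend, and 14 above 0 and 19 below without the filter. By list it was called for 19 of 50 mitosis genes, 9 of 35 TGF-β targets, 6 of 33 NF-κB targets, 5 of 43 replication genes and 0 of 23 TGF-β and activin ligands and receptors. In FN1 the knockdown difference was 6.57 without and 1.90 with the inhibitor, where the signals were 137 and 558 (interaction -4.67, adjusted p = 4e-07, limma). TGFBI turned from 1.72 to -1.16 (14600 and 6550 with the inhibitor), and COL7A1 from 1.92 to a value that rounds to 0 (929 and 928). CDC20 went from -1.61 to -0.02 (3010 and 2960). PTX3 turned from -1.06 to 1.89 (451 and 1720), and TNFAIP3 went from 1.63 to 3.64 (574 and 7330). INHBA, VEGFC and SCEL kept differences of 4.60, 3.01 and -3.45 with the inhibitor, and their interactions were not called. Further genes with a large interaction were less described. CKAP2L went from -3.10 to 0.14, SCG5 from 2.95 to -0.38 and MSC-AS1 from 3.02 to 0.19. SLC47A2 (-1.04 to -4.04), MDGA1 (1.17 to -1.52) and LINC01504 (-0.72 to 2.04) had interactions of -3.00, -2.70 and 2.76. FAXDC2 had DMSO signals of 1100 and 579 with siCtrl and 485 and 1160 with siCYLD, so that its duplicates differed more than its groups, and its difference of -0.09 became 0.53 without siCYLD replicate 1 and -0.70 without siCYLD replicate 2, both called. The DMSO calls of SCG5, MSC-AS1 and MDGA1 were lost in the reduced fit, and that of SLC47A2 when any array but siCYLD replicate 2 was left out (-0.85 to -1.23). MDGA1 also lost its call without siCtrl replicate 1 (0.94) or siCYLD replicate 1 (0.99).

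**Figure D5:**
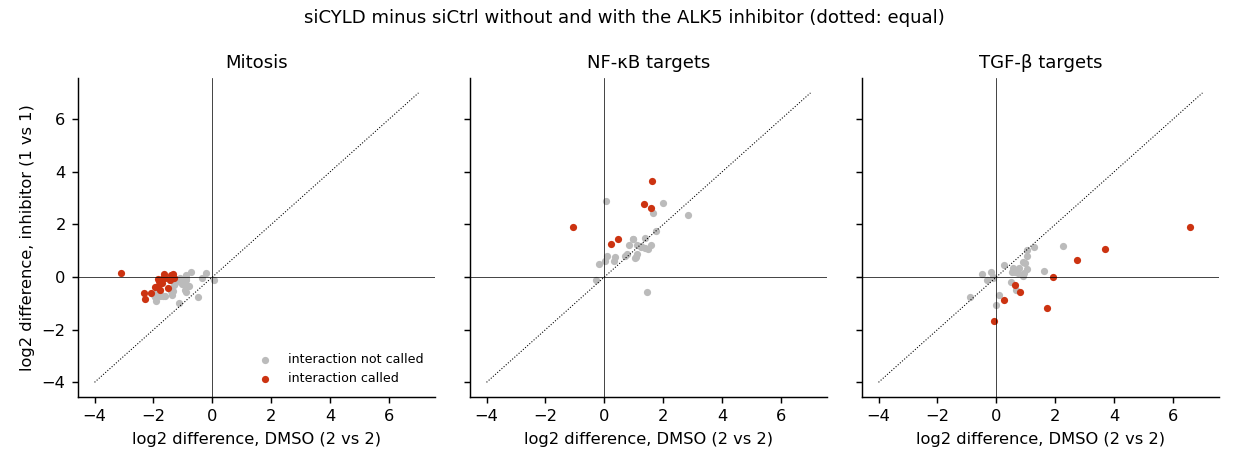
Difference between siCYLD and siCtrl without the inhibitor (2 arrays against 2, horizontal axis) and with it (1 against 1, vertical axis), both on the log2 scale, for the tested members of 3 lists, with red points where the interaction was called and a dotted line where both are equal. Mitosis genes (medians -1.42 and -0.28) and many TGF-β targets lie nearer to 0 on the vertical axis than on the horizontal one, and NF-κB targets (medians 1.09 and 1.21) lie about the line.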

How the data were processed

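RNA of 6 samples, 1 per array, was measured on expression arrays with 54675 probe sets. The authors deposited MAS5 signal intensities, scaled to a trimmed mean of 500.1, per the labels and the values; detection calls were not used here. Genes were named through the platform annotation: 41091 probe sets had 1 symbol, 1801 several and 11721 none, and the last 2 kinds were left out, as were 62 control probe sets. The 41043 entrez identifiers found in the RefSeq table changed 0 symbols.

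An offset of 16.057 (the 20th percentile of all signals) was added before log2. Probe sets were kept when the highest group mean exceeded a signal of 79.333, and the brightest kept probe set stood for each gene. Group means over all 6 arrays were fitted in limma 3.58.1 (R 4.3.3, eBayes with intensity trend, 2 residual and 10.944 prior degrees of freedom). The single inhibitor arrays add no residual degrees of freedom, so each gene's own spread comes from the 2 DMSO duplicate pairs. The p-values were adjusted by Benjamini-Hochberg over all 12935 genes. The number of arrays limits the precision. The script was tested on simulated data.

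Members and gene lists were chosen with earlier results of these data known. Genes were named by rule: the 5 markers, up to 4 largest called rises and falls of each list with members that did not pass, called genes of rank 13 to 30 by size, the 12 largest moderated t each way, and the 10 largest called interactions. Further list members were chosen after their values were seen. Promoters came from RefSeq (GRCh38.p14), and 10447 of the 12935 genes had one. The numbers rep1 and rep2 were not taken to pair the arrays. Other offsets, scalings, filters, probe set rules, moderation, sample sets and groupings were tried as alternatives.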

Additional observations from a re-analysis of the deposited data

Results flagged for a closer look

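For 66 of the genes named in the report the knockdown difference with the ALK5 inhibitor differed from that without it by limma's interaction term at an adjusted p below 0.05, with 36 above 0 and 30 below. Values are the difference in the inhibitor pair minus that in the DMSO arrays on the log2 scale. The inhibitor side is 1 array of each siRNA, 1.67% of all tested genes were called, and no call remained without the intensity trend.

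Genes of division and DNA metabolism had interactions above 0: CKAP2L at 3.24, KIFC1 at 2.25, RRM2 at 2.13, ANLN at 1.70, NCAPG at 1.70, FAM83D at 1.65, MYBL2 at 1.64, CDC20 at 1.59, TOP2A at 1.57, TYMS at 1.56, TTK at 1.52, CDK1 at 1.49, RAD51AP1 at 1.47, FOXM1 at 1.47, HMMR at 1.44, BRCA1 at 1.43, KIF11 at 1.4, CCNB1 at 1.26, BRIP1 at 1.15 and GMNN at 1.14. Inflammatory genes had values above 0 as well: PTX3 at 2.95, TNFAIP3 at 2.01, CXCL1 at 1.42, ICAM1 at 1.04 and IL6 at 1.04. Matrix, adhesion and protease genes had values below 0: FN1 at -4.67, TGFBI at -2.87, MMP9 at -2.09, CST6 at -1.98, COL7A1 at -1.92, THBS1 at -1.57, COL5A1 at -1.56, ITGA2 at -1.22, ADAMTS1 at -0.99 and CTSB at -0.98. Other matrix genes had values above 0: TIMP3 at 1.88, ITGBL1 at 1.43 and LAMA4 at 1.15. Signalling genes and growth regulators below 0 were: PMEPA1 at -2.60, SGK1 at -1.59, SMAD7 at -1.38, IGFBP3 at -1.27, IGF1R at -1.26, SNAI2 at -1.14, NDRG1 at -0.96 and CDKN1A at -0.94. Signalling genes above 0 were: FOS at 1.5, NGFR at 1.49, PDE5A at 1.19, DKK1 at 1.05, NRP1 at 0.98 and EGR1 at 0.68. Epithelial and S100 genes below 0 were: S100A6 at -1.19, KRT5 at -0.84, DSP at -0.80 and KRT7 at -0.55. The remaining genes had values on both sides of 0: FAXDC2 at -3.42, SCG5 at -3.32, SLC47A2 at -3.00, MSC-AS1 at -2.83, LINC01504 at 2.76, MDGA1 at -2.70, MOB3B at -1.93, SH3PXD2A at -1.64, PFKFB4 at -1.47 and NANOS1 at 1.15. The duplicate groups hold too few arrays for a check for single arrays that stand apart.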

How the results depend on the processing

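Counts of called genes moved by over 1.5 times under several alternatives. Without the intensity trend the knockdown gave 576 higher and 643 lower genes, and list members 136 and 173. The additive fit without the 2 arrays with conflicting labels gave 508 and 544, and 124 and 133. Without the filter 1004 genes were lower. Grouping by source name called 0 genes in each direction, with 80 at an unadjusted p below 0.05, 0 list members in each direction and 0 interactions; each of its groups holds 1 array of each siRNA by title. The sign then turned for 132 of 266 genes named in the report, whose differences ran from -0.86 to 0.68. Interactions above 0 numbered 71 with median centring, 14 without the filter, 59 with the mean of probe sets, 78 when _x_at and _s_at probe sets were left out and 0 without the trend, and those below 0 numbered 19 without the filter, 36 with the mean of probe sets, 56 without those probe sets and 0 without the trend. The cause was not tested. Leaving out each array in turn gave 969 to 1247 higher and 1098 to 1405 lower genes, 197 to 222 and 223 to 285 list members, and 153 to 273 and 121 to 182 interactions.

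Of 202 named genes that were called, 164 kept the call under every alternative by title, and 11 lost it when 1 array was left out. The reduced fit turned PTX3 to 0.47, MDGA1 to -0.15 and KRT7 to a value just below 0 (-0.0), FGFR2 turned to 0.14 when _x_at and _s_at probe sets were left out, and FAXDC2, not called, to 0.53 without siCYLD replicate 1 and -0.70 without siCYLD replicate 2. Of the named genes not called, 32 changed sign in at least 1 setting. The deviations of same-numbered arrays correlated at 0.04467 over 2 pairs, so the numbers were not taken to pair the arrays. With a replicate block in the 4 DMSO arrays 1651 genes were higher and 2042 lower, against 1270 and 1532 without it. Without detection calls, how far dim signals such as those of MMP1 or IL32 lie above background is unknown.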
